A study of Mus musculus with 6 samples.

Results

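Ribosome biogenesis and nucleolar genes were followed across 3 stages of CD8 thymocyte development on 6 microarrays. The set comprised Myc and 41 genes of RNA polymerase I, small nucleolar ribonucleoproteins and ribosomal subunit assembly, listed by name; the list was drawn up with earlier results of these data known. Of the 42 listed genes, 41 were represented on the array by a probe of their own, and Npm3 was not analysed here because no probe carried it as its only gene. All 41 passed the filter on dim genes, among 10916 genes tested of 18193 on the array. Thymocytes were sorted on CD4 and CD8 into 3 populations: DP, positive for both coreceptors, CD4intCD8+, with reduced CD4, and CD8SP. They came from 6 mice, matched for age and sex and 5 to 6 weeks old, of the genotype N15 TCR tg+/+ RAG-2-/- on the H-2b haplotype. All 3 stages thus shared the rearranged transgenic receptor and the lack of RAG-2, so that nearly all thymocytes carry 1 receptor specificity and no wild-type animals were compared. Each stage had 2 arrays, numbered 1 and 2 in the sample titles, and the series describes 2 independent experiments. No label says that a number marks an experiment or ties an array to particular animals, and a p-value here covers only the spread seen among the arrays, part of which may be technical.

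Ribosome production starts in the nucleolus, where RNA polymerase I transcribes the ribosomal RNA precursor. Small nucleolar ribonucleoproteins of the box C/D class guide 2′-O-methylation of this precursor, and those of the box H/ACA class guide its pseudouridylation. Large assembly complexes then cut and fold the RNA into precursors of the 40S and 60S subunits. The transcription factor Myc binds, with its partner Max, to E-box sequences and is a known activator of many of these genes. In thymocytes Myc is best known for supporting the growth and division of immature cells, and resting DP cells are small.

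Cd4, Rag1 and maturation markers followed the sorted stages. Cd4 read 351 and 515 on the DP arrays and at most 11.8 on the other arrays, and Rag1 read 1046 and 1054 in DP against 57.9 to 134 in the later stages. Cd4 was under the filter and was not tested. The other 4 genes of the DP marker list, Cd8a, Cd8b1, Rag1 and Rag2, were called lower in both later stages. Their log2 changes from DP ran from -3.11 to -0.84 in CD4intCD8+ and from -3.70 to -0.69 in CD8SP. Beside them, 4.84% and 8.35% of all genes tested fell. Cd8a and Cd8b1 thus fell between stages that were all sorted as positive for CD8. Rag2 was on the list although the animals were RAG-2-/-, and what its probe reads in them is not known. The summed intensity of 6 markers of mature CD8 thymocytes was 736 to 1176 in DP, 1573 to 2596 in CD4intCD8+ and 3889 to 4147 in CD8SP. Among other cell types, the summed B cell markers (5 of 6 on the array) were 2162 to 2566, 1851 to 2040 and 2089 to 2122 in the same order. Ighm made up most of that sum, whereas Cd79a and Pax5 were under the filter. Of the 3 B cell markers tested, 1 rose over the span, Cd79b, by 0.90 (adjusted p = 0.0118), a call lost without any DP or CD8SP array (0.0552 to 0.0782). The 4 T cell markers on the array summed to 10542 to 11361 in DP, 7671 to 9167 in CD4intCD8+ and 7695 to 8387 in CD8SP, without overlap between DP and the later stages. Thy1 fell by 0.62 at the first step and by 0.67 over the span (adjusted p = 0.00749 and 0.00189), and Cd2 fell by 0.43 over the span (0.0388). The first-step Thy1 call was lost without DP replicate 2 (0.0552) and the Cd2 call without any DP or CD8SP array (0.0613 to 0.185). The part of these markers in the members' changes was not tested. The 6 myeloid markers summed to 193 to 200, 227 to 252 and 199 to 259, and 5 double negative markers to 115 to 123, 127 to 212 and 120 to 223. The median intensity over all probes was 24.9 to 25.7 on the 6 arrays. The ratio of the 3′ to the 5′ actin control probe, a sign of RNA and labelling quality, stood at 1.98 and 2.14 for the DP arrays, 2.37 and 3.47 for CD4intCD8+, and 2.28 and 2.62 for CD8SP. It moved with stage, and the fit that includes it is given beside the counts. In these bulk samples, fewer cells of a type and less RNA per cell cannot be told apart.

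The nucleolar genes were higher in CD4intCD8+ than in DP cells. Of the 41, 23 rose and 0 fell at an adjusted p under 0.05 in limma, while 6.86% of all genes tested rose and 4.84% fell. Their median log2 change was 0.61, against 0.01 over all genes tested, and 40 of the 41 changes were above 0. Log2 changes here are those of intensity + 5.84, a constant that keeps dim values defined and makes changes of dim genes smaller. The called increases ran from 1.32-fold for Npm1 to 3.03-fold for Rrp12, and 7 of them were 2-fold or more. Rrp12 passed the filter on dim genes only through the later stages, where it was higher. Both CD4intCD8+ arrays lay above both DP arrays for 37 members (90.2%), which held for 30.8% of all genes tested. Wdr12 alone lay below on both arrays, and Ncl, Bysl and Bop1 overlapped. Called counts depended on the arrays entered. Without either DP array or CD4intCD8+ replicate 2 fewer genes were called, among the members and among all genes tested. The members' median was then 0.64 (DP replicate 1), 0.59 (DP replicate 2) and 0.54 (CD4intCD8+ replicate 2), against 0.02, 0.00 and 0.01 over all genes. With the actin ratio as a covariate 4 were called, Rrp12, Myc, Nhp2 and Gnl3, and these same 4 were called in each of the 17 alternatives that kept them among the genes tested. With the replicate number as a block in the model, 29 rose and 1, Wdr12, fell, while 1456 of the 10916 genes tested rose and 1106 fell.

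From CD4intCD8+ to CD8SP the changes were smaller, and 0 members were called in limma, with 0.101% of all genes called higher and 0.0183% lower. The median of the members was 0.22 against 0.00 over all genes, and 38 of 41 changes were above 0. At an unadjusted p under 0.05 stood 11 members, Myc, Nhp2, Tsr1, Rrp1b, Utp20, Mybbp1a, Nop2, Nop58, Ddx21, Nop56 and Bop1, and the lowest adjusted p was 0.236. Both CD8SP arrays lay above both CD4intCD8+ arrays for 27 members (65.9%), against 20.2% of all genes. The replicate block also gave 0 member calls at this step, and 2.08% of all genes.

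Over the whole span from DP to CD8SP, 32 members rose and 0 fell, with 11.5% of all genes rising and 8.35% falling. The median log2 difference was 0.86 against 0.01 over all genes. Called increases ran from 1.31-fold for Npm1 to 4.69-fold for Myc, and 11 were 2-fold or more. For 40 of the 41 members both CD8SP arrays stood above both DP arrays, against 32.4% of all genes, and Wdr12 was again the exception. The call count stayed between 22 and 31 when any 1 array was left out, was 28 with the actin ratio and 36 with the replicate block, which called 1850 of all genes tested higher and 1427 lower. Averaging the probes of each gene gave 24 and ended the calls of Ebna1bp2, Heatr1, Nip7, Noc3l, Noc4l, Nop16 and Pes1 (adjusted p 0.0645 to 0.247). Polr1a, whose further probes were all under the filter, was then not among the 40 members tested. These averages also take in probes under the filter. This comparison shares its DP arrays with the first one, so that their counts are not independent.

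A peak in CD4intCD8+ cells was tested against the mean of the other stages. Called members numbered 0 in limma, with 0.00916% of all genes called higher and 0% lower, and 9 had an unadjusted p under 0.05 (Rrp12, Nhp2, Rrs1, Gar1, Gnl3, Ebna1bp2, Pno1, Fbl and Npm1). With the replicate block Nhp2 was called, at a log2 difference of 0.40 and an adjusted p of 0.0382, which is 2.44% of the members beside 1.97% of all genes in that fit.

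**Figure D1:**
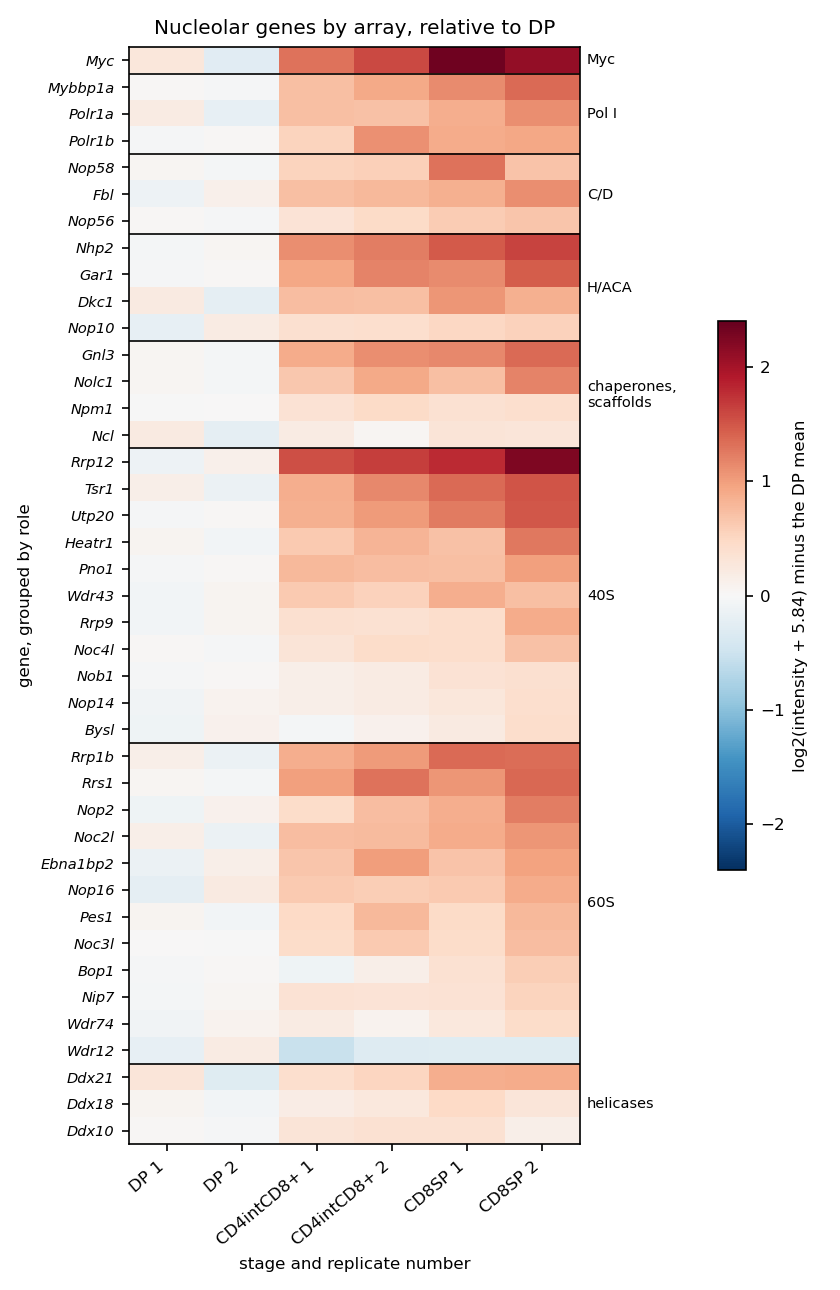
Heat map of log2(intensity + 5.84) minus the DP mean for the 41 nucleolar genes (rows, grouped by role) on the 6 arrays (columns); red is above the DP mean and blue below. The rows are mostly red from CD4intCD8+ on, deepest for Myc and Rrp12, and Wdr12 is blue on all 4 later arrays.

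**Figure D2:**
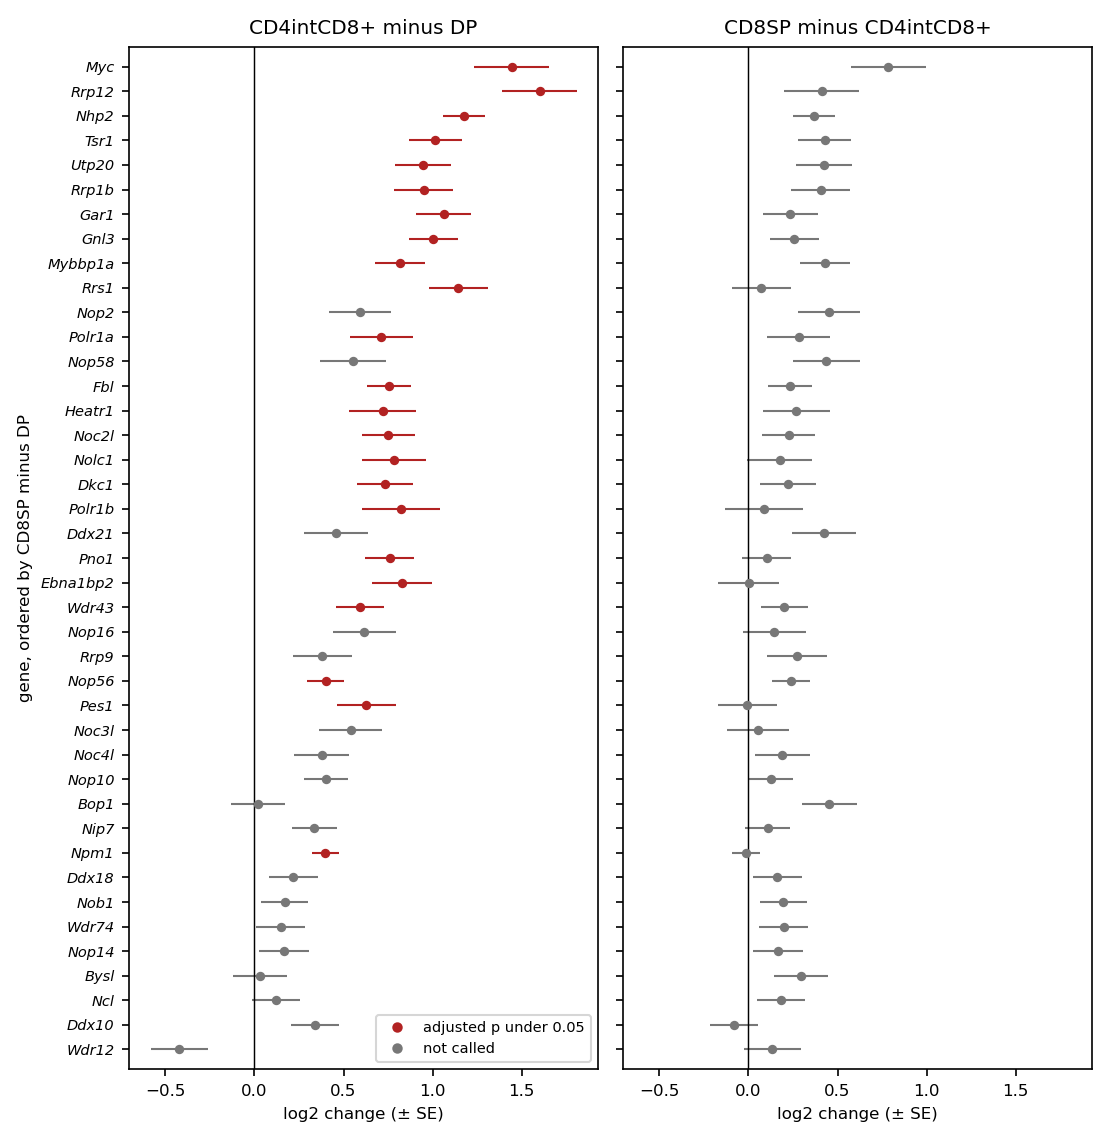
Log2 change of each of the 41 genes (rows, ordered by CD8SP minus DP) at the first step, left, and the second step, right, with bars of ± 1 standard error from limma; red marks an adjusted p under 0.05. The left panel holds 23 called genes and the right panel 0; both panels share the CD4intCD8+ arrays.

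Myc, the transcription factor of the set, read 43.8 and 27.8 in DP cells, 95.4 and 116 in CD4intCD8+ and 201 and 171 in CD8SP. The arrays of the 3 stages did not overlap, and each stage lay above the one before. Myc rose 2.72-fold at the first step (log2 1.44 ± 0.21 SE, adjusted p = 0.00586) and stood 4.69-fold higher in CD8SP than in DP (log2 2.23 ± 0.21, adjusted p = 0.000278). Its second-step difference of 0.78 ± 0.21 was the largest of the members there and was not called (adjusted p = 0.236). Of 9 other genes of the Myc network that passed the filter, 0 rose and 2 fell at the first step, beside 6.86% and 4.84% of all genes tested. Mxi1, a Max partner that opposes Myc, read 342 and 343, then 186 and 189, then 131 and 141, without overlap between stages. It fell by 0.85 ± 0.13 (adjusted p = 0.00695), a call that missed the threshold only without DP replicate 2 (adjusted p = 0.0556). Mxd4, another such partner, fell by 0.44 (adjusted p = 0.0426), and that call was lost without either DP array or either CD4intCD8+ array (adjusted p 0.0529 to 0.248), with the actin ratio (0.439), and with quantile normalization, averaged probes, no filter or no intensity trend (0.0558 to 0.0937). With the replicate block 3 network genes fell, beside 1106 of the 10916 genes tested. Over the span Mxd1, of the same family, rose by 0.70 (adjusted p = 0.0138) while Mxi1 fell by 1.30 and Mxd4 by 0.48. Averaging all probes left Mxd1 at 0.00 (adjusted p = 0.995), and its call was also lost without either DP array or CD8SP replicate 1. Max itself differed by -0.15 (adjusted p = 0.645), and Mycn and Mycl were under the filter.

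Because Myc and Max recognise the E-box CACGTG, promoter windows of the members were searched for it. The windows came from RefSeq (GRCm38.p6) and cover 250 bases before to 50 after a start site, 300 in all. They were found for 35 members, in 39 windows, and not for Fbl, Npm1, Rrp12, Rrs1, Bop1 or Myc. CACGTG reads the same on both strands. It stood in 7 of 39 member windows (17.9%), in 9.76% of the windows of tested genes and in 7.15% of the 32851 windows in the table. Among windows of members that rose at the first step it stood in 6 of 20 (30%), and among those of the other members in 1 of 19 (5.26%). For all genes that rose at that step the share was 13.0%. These shares are descriptions without a test, and a match is not evidence of binding. The 4 most changed members with a match are shown around it, 5′ to 3′ on the gene's strand, with CACGTG in capitals.
Tsr1: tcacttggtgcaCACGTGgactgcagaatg
Utp20: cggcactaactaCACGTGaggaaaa
Mybbp1a: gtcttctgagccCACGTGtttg
Pno1: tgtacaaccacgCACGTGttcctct
The Tsr1 stretch is chr11:74898092-74898121 on the plus strand and the Utp20 stretch chr10:88826765-88826789 on the minus strand. The Mybbp1a stretch is chr11:72441355-72441376 on the plus strand and the Pno1 stretch chr11:17211540-17211564 on the minus strand, and 3 of the 4 are cut short where the window ends. Counted from the start site as base 1, the E-box began at base 25 in Tsr1, 38 in Utp20, 41 in Mybbp1a and 38 in Pno1, all within the transcribed side of the window. Pes1 (base 3) and Wdr43 (base 18) carried it there too, and in Nop2 it lay 60 bases before the start. The related motif CACGCG, searched on both strands, was in 30.8% of member windows and 16.5% of windows of tested genes. GGGCGG, the GC box, was in 69.2% and 60.2%, and TATAAA in 5.13% and 7.56%.

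All 3 members that act in ribosomal DNA transcription rose at both the first step and over the span. Mybbp1a, a nucleolar Myb-binding protein that also regulates rRNA synthesis, read 196 and 190 in DP cells, 320 and 369 in CD4intCD8+ and 428 and 504 in CD8SP. It rose by 0.81 ± 0.14 at the first step (adjusted p = 0.0103) and by 1.24 over the span. Polr1a, the largest subunit of RNA polymerase I, read 67.6 and 50.7, 100.3 and 99.2, and 113 and 133. Its first-step increase was 0.71 ± 0.18 (adjusted p = 0.0332). The further Polr1a probes, all under the filter, gave -0.63 to 0.40 at that step. Polr1b, the second largest subunit, rose by 0.82 ± 0.22 (adjusted p = 0.0426). Its DP values, 29.1 and 30.7, lay below the intensity of 30.8 at which genes were filtered on their mean. Polr1b thus passed the filter only through the later stages, where it was higher. The DP arrays lay below all later arrays for these 3 genes. Every one of the 3 first-step calls was lost without either DP array or CD4intCD8+ replicate 2, Polr1a also without CD4intCD8+ replicate 1, and Polr1b also without either CD8SP array (adjusted p 0.0547 to 0.269). With the actin ratio the values were 0.129 to 0.554. The span call of Polr1b was lost without any DP or CD8SP array (0.0627 to 0.102). Among 17 other genes of the RNA polymerase I machinery 4 rose at the first step and 0 fell, with a median of 0.09. The 4 were Cd3eap (0.98), Taf1d (0.61), Polr1c (0.60) and Polr2f (0.49). Over all genes tested 6.86% rose and 4.84% fell, and with the replicate block 1456 and 1106 of 10916 did. None of those 4 calls held when DP replicate 1 or DP replicate 2 was left out, and with the replicate block 4 rose and 2 fell.

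The box C/D group holds the methyltransferase fibrillarin (Fbl) and the core proteins Nop56 and Nop58. Fbl read 703 and 824 in DP cells, 1264 and 1317 in CD4intCD8+ and 1385 and 1660 in CD8SP, and rose by 0.76 ± 0.12 (adjusted p = 0.00832). Nop56 read 659 and 634, 816 and 896, and 994 and 1026, a smaller increase of 0.40 ± 0.10 (adjusted p = 0.0411). Nop58 went from 262 and 245 to 368 and 382 and then to 630 and 411, so that its CD8SP arrays differed widely. For each of the 3 genes the stages did not overlap. Nop58 was not called at the first step (0.55, adjusted p = 0.0878) but was with the replicate block (0.0249) and without either CD8SP array (0.0301 to 0.0318), and over the span all 3 rose, by 0.99, 0.64 and 0.99. The first-step call of Nop56 was lost without any 1 of the 6 arrays, and that of Fbl without DP replicate 1 (adjusted p = 0.0576). The actin covariate gave 0.0768 for Fbl and 0.393 for Nop56, and the span call of Nop58 was lost without DP replicate 2 (0.0548).

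In the box H/ACA group 3 of 4 members rose at the first step and 4 of 4 over the span. Nhp2, a core protein of these particles, had the lowest adjusted p of the set. It read 317 and 335 in DP cells, 717 and 773 in CD4intCD8+ and 913 and 1015 in CD8SP. The increase was 2.26-fold (log2 1.18 ± 0.12, adjusted p = 0.00136) and reached 2.92-fold over the span (log2 1.55 ± 0.12, adjusted p = 9.26e-05). Gar1, a partner protein, read 184 and 192, 362 and 439, and 420 and 527, and rose by 1.06 ± 0.16 (adjusted p = 0.0061). Dkc1, the pseudouridine synthase dyskerin, read 381 and 282, 553 and 545, and 693 and 593, and rose by 0.73 ± 0.16 (adjusted p = 0.0209). In all 3 the DP arrays were the lowest and the CD8SP arrays were above at least 1 CD4intCD8+ array. Nop10, the smallest core protein, differed by 0.40 (adjusted p = 0.0673), a difference called with the replicate block (0.0141) and without DP replicate 2 (0.0454), and rose by 0.53 over the span. The span call of Nop10 was lost without DP replicate 1 or either CD8SP array (adjusted p 0.0526 to 0.0865). The Dkc1 first-step call was lost without DP replicate 2 or CD4intCD8+ replicate 2 (0.0655 to 0.113), and with the actin ratio Gar1 stood at 0.0595 and Dkc1 at 0.0553.

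Among nucleolar chaperones and scaffolds the sizes of change differed. Gnl3 (nucleostemin), a nucleolar GTP-binding protein of proliferating cells, read 255 and 238 in DP cells, 460 and 543 in CD4intCD8+ and 557 and 644 in CD8SP. It rose by 1.00 ± 0.14 at the first step (adjusted p = 0.00504) and by 1.26 over the span. Npm1 (nucleophosmin), an abundant histone chaperone, read 2182 and 2195, 2768 and 3008, and 2810 and 2910. Its increase of 0.40 ± 0.08 (adjusted p = 0.0141) came at the first step, and the second-step difference was -0.01. Nolc1, a scaffold that binds small nucleolar ribonucleoproteins, rose by 0.78 (adjusted p = 0.0264). The first-step calls of Npm1 and Nolc1 were lost without either DP array or CD4intCD8+ replicate 2 (0.0719 to 0.130), and with the actin ratio stood at 0.202 and 0.343. Over the span Nolc1 was not called without DP replicate 2, nor Npm1 without CD8SP replicate 2.

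Ncl (nucleolin), singled out here after its values were seen, read 1614 and 1204 in DP cells, 1601 and 1434 in CD4intCD8+ and 1731 and 1713 in CD8SP. The DP and CD4intCD8+ arrays overlapped, and the first-step difference was 0.12 (adjusted p = 0.605). Over the span it was 0.30 (adjusted p = 0.15), which the replicate block called (0.0381), as did the fit without DP replicate 1 (0.0336). These values are those of its reported probe, and its probes disagreed. Another probe read 80.3 and 87.3, 131 and 209, and 157 and 204, or 0.94 at the first step and 1.05 over the span, and 2 further probes above the filter gave 0.12 and -0.10 at the first step.

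Of the 11 members of the small subunit processome and of 40S maturation, 6 rose at the first step and 8 over the span. Rrp12, needed for export and processing of pre-ribosomes, read 17.1 and 21.3 in DP cells, 67.1 and 72.5 in CD4intCD8+ and 80.1 and 111 in CD8SP. Its DP values lay below the intensity of 30.8 at which genes were filtered on their mean. It thus passed the filter only through the later stages, where it was higher. Rrp12 rose 3.03-fold (log2 1.60 ± 0.21, adjusted p = 0.00394) and stood 4.03-fold higher over the span. Tsr1, a GTPase-like factor of late 40S maturation, read 296 and 242, 494 and 605, and 700 and 777, and rose by 1.02 ± 0.15 (adjusted p = 0.00622). Utp20, a processome component, read 56.1 and 59.3, 109 and 124, and 144 and 173. Stages did not overlap for these 3 genes. Utp20 rose by 0.94 at the first step (adjusted p = 0.00902) and by 1.37 over the span. Pno1, a partner of the Nob1 nuclease, read 199 and 208, 353 and 344, and 341 and 411, and rose by 0.76 (adjusted p = 0.0115). Wdr43, a processome subunit, read 156 and 170, 255 and 243, and 302 and 274, and rose by 0.59 (adjusted p = 0.0248). For Pno1 the 2 later stages overlapped.

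Heatr1, which links the processome to RNA polymerase I, rose by 0.72 (adjusted p = 0.0401) at its reported probe, while another probe of the gene gave -0.27. Averaging its probes gave 0.18 (adjusted p = 0.570). Rrp9 (0.38), Noc4l (0.38), Nob1 (0.17), Nop14 (0.17) and Bysl (0.03) were not called at the first step. Over the span Rrp9 rose by 0.65 and Noc4l by 0.57, while Nop14 (0.33), Nob1 (0.37) and Bysl (0.32) were not called, and Nob1 was with the replicate block (adjusted p = 0.0414). First-step calls were lost without DP replicate 2 for Tsr1, Utp20, Pno1, Heatr1 and Wdr43, and without DP replicate 1 for the same genes except Tsr1. Heatr1 and Wdr43 were also not called without CD4intCD8+ replicate 2, nor Wdr43 without CD4intCD8+ replicate 1. With the actin ratio these 5 genes stood at adjusted p values of 0.0544 (Tsr1), 0.0961 (Utp20), 0.0925 (Pno1), 0.112 (Wdr43) and 0.39973 (Heatr1). Span calls of Rrp9 and Noc4l were lost without either DP array or CD8SP replicate 2, and that of Heatr1 without DP replicate 2 (0.0575 to 0.192). Noc4l was also lost over the span with the actin ratio (0.0683).

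Of the 12 members of 60S maturation 5 rose at the first step and 9 over the span. Rrs1, which helps place 5S RNA, read 139 and 130 in DP cells, 272 and 339 in CD4intCD8+ and 285 and 359 in CD8SP, a rise of 1.14 ± 0.17 (adjusted p = 0.00579). Its second-step difference was 0.07, with overlapping arrays. Rrp1b, a nucleolar protein of pre-60S particles, read 45.8 and 36.9, 80.6 and 89.5, and 115 and 114, and rose by 0.95 (adjusted p = 0.0105). Ebna1bp2 read 212 and 256, 372 and 471, and 378 and 463, and rose by 0.83 (adjusted p = 0.017). Without DP replicate 1 or CD8SP replicate 2 its span call was lost (0.0681 to 0.0783). Its 2 later stages overlapped as well, and the mean of its probes gave 0.27 (adjusted p = 0.356). That mean takes in a probe under the filter (-0.68), while the further Ebna1bp2 probe above the filter gave 0.66. Noc2l, of an early pre-60S transport complex, read 181 and 147, 277 and 279, and 307 and 346. Noc2l rose by 0.75 (adjusted p = 0.0146), although another probe of it gave -0.09 and the mean of its probes 0.33 (adjusted p = 0.216). Nop2, an rRNA methyltransferase, read 155 and 182, 231 and 284, and 311 and 401. Its first-step difference of 0.59 was not called (adjusted p = 0.0572) but was with the replicate block (0.00501) and when CD4intCD8+ replicate 1 or either CD8SP array was left out (0.04003 to 0.0494). Over the span Nop2 rose by 1.05 (adjusted p = 0.00373).

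Of the remaining assembly factors, Nop16 (0.61), Noc3l (0.54) and Nip7 (0.34) were not called at the first step, and with the replicate block they were (adjusted p 0.0118, 0.0387 and 0.0495). Over the span they rose by 0.76, 0.59 and 0.44, while Wdr74 differed by 0.35 (adjusted p = 0.112). The span calls of Nip7 were lost without any 1 array, those of Noc3l without any DP or CD8SP array, and those of Nop16 without DP replicate 1 or CD8SP replicate 2. The mean of the Nop16 probes gave 0.29 over the span (adjusted p = 0.247), and it takes in a probe under the filter (-0.17). At the first step the calls of Rrs1 (0.0527), Rrp1b (0.0723), Noc2l and Ebna1bp2 were lost without DP replicate 2. Ebna1bp2 was also lost without DP replicate 1, and Noc2l and Ebna1bp2 without CD4intCD8+ replicate 2. With the actin ratio the 5 first-step calls of the 60S members stood at adjusted p 0.0514 to 0.467.

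Pes1, Bop1 and Wdr12 form a single complex that is needed for maturation of the 60S subunit, and their values, looked at together after they were seen, went different ways. Pes1 read 165 and 150 in DP cells, 222 and 273 in CD4intCD8+ and 220 and 273 in CD8SP. Bop1 read 156 and 163, 147 and 178, and 206 and 243. Wdr12 read 320 and 420, 251 and 295, and 299 and 299. Pes1 was thus higher from CD4intCD8+ on, Bop1 in CD8SP, and the Wdr12 arrays of both later stages lay below the DP arrays. Pes1 rose by 0.63 ± 0.16 at the first step (adjusted p = 0.0403) and differed by -0.01 at the second. Bop1 differed by 0.02 ± 0.15 at the first step (adjusted p = 0.95) and by 0.45 ± 0.15 at the second (adjusted p = 0.361). Its span difference of 0.47 was not called (adjusted p = 0.0593) but was with the replicate block (0.0165). The Wdr12 difference was -0.42 ± 0.16 (adjusted p = 0.119), called lower with the replicate block (0.0335), and -0.29 over the span (0.246). The differences between the 3 genes were not tested. Pes1 was not called at the first step without either DP array or CD4intCD8+ replicate 2 (0.128 to 0.224) or with the actin ratio (0.467). Its span call was lost without either DP array or CD8SP replicate 2 (0.0898 to 0.172).

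The 3 DEAD-box RNA helicases were not called at the first step, with differences of 0.46 for Ddx21, 0.34 for Ddx10 and 0.22 for Ddx18. Ddx21, which links RNA polymerase I transcription to rRNA processing, read 324 and 216 in DP cells, 351 and 381 in CD4intCD8+ and 488 and 496 in CD8SP. Its DP arrays differed by more than those of the other stages, and the mean of its probes gave a called first-step rise of 0.60 (adjusted p = 0.0358). Over the span Ddx21 rose by 0.88 (adjusted p = 0.00979), a call lost without DP replicate 2 (0.0524). Ddx18 differed by 0.38 over the span (adjusted p = 0.0802; 0.0352 with the replicate block) and Ddx10 by 0.25 (adjusted p = 0.225).

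**Figure D3:**
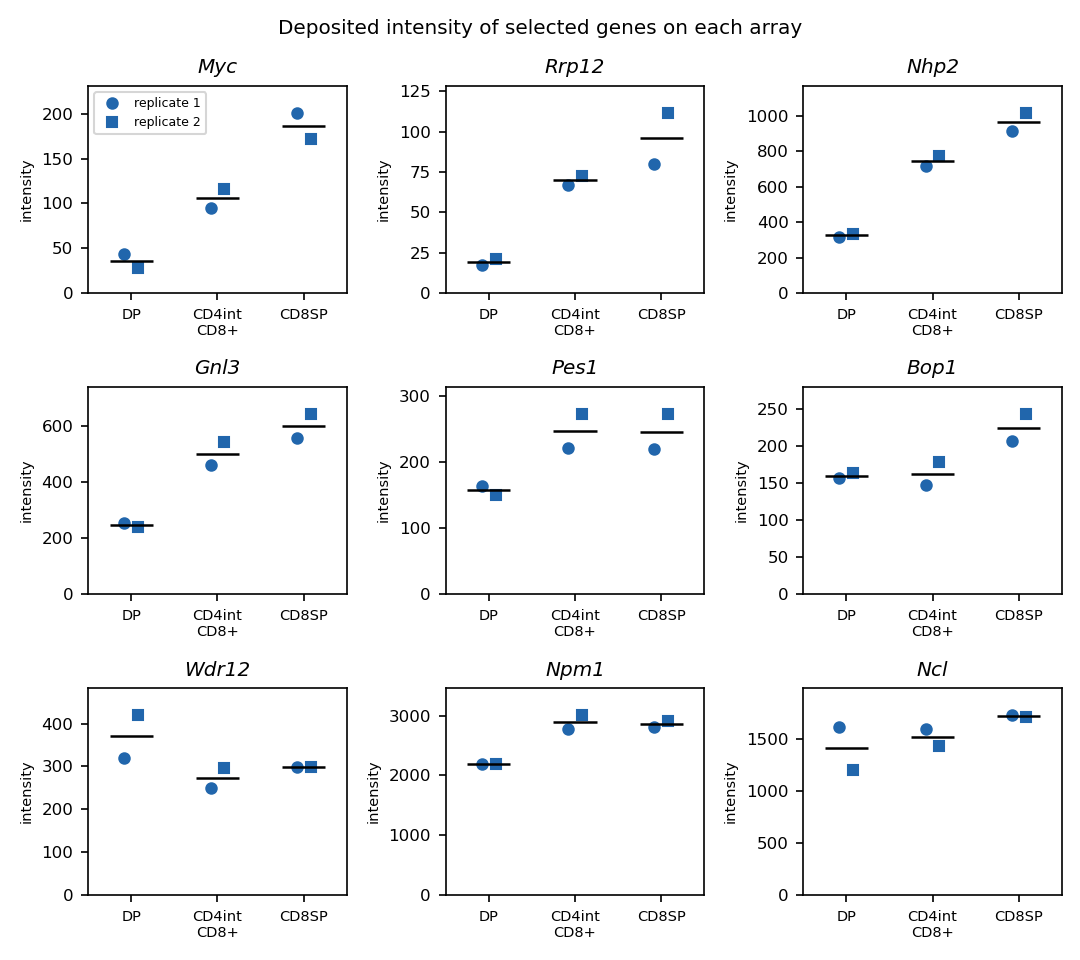
Deposited intensity (y axis, linear, from 0) of 9 nucleolar genes on each array by stage (x axis); circles are replicate 1, squares replicate 2 and bars the mean of the 2 arrays. Myc, Rrp12, Nhp2 and Gnl3 climb from stage to stage, Pes1 and Npm1 level off after CD4intCD8+, Bop1 is higher in CD8SP, Wdr12 is highest in DP, and Ncl overlaps between DP and CD4intCD8+.

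Changes were also taken between arrays of the same replicate number. A member that is higher without overlap between stages must rise with both numbers, so these counts add no separate support. Shares of all genes that rose with both numbers were not counted. The median first-step change of the members was 0.56 between the arrays numbered 1 and 0.67 between those numbered 2, and 37 of 41 changes were above 0 in both. Over the span the medians were 0.70 and 0.84, with 40 of 41 above 0 in both. At the second step they were 0.20 and 0.26, with 32 of 41. Replicate 2 read higher than replicate 1 for 21 members in DP, 32 in CD4intCD8+ and 33 in CD8SP. Over all genes tested those shares were 47.7%, 54.6% and 53.0%. Relative to the DP mean the members' median stood at 0.54 and 0.71 on the CD4intCD8+ arrays and at 0.72 and 0.89 on the CD8SP arrays.

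Further probes above the filter, not used for the counts, mostly moved the same way. The 41 members had 84 probes, and 28 members had more than 1. Of 31 further probes above the filter, from 24 members, 28 had the same sign as the reported probe at the first step and 31 over the span. The 3 of opposite sign at the first step belonged to Heatr1 (-0.27), Noc2l (-0.09) and Ncl (-0.10).

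Other ribosome assembly genes, not among the members, had lower medians, and the difference from the members was not tested. Of 43 other 40S factors that passed the filter, 7 rose and 0 fell at the first step, with a median of 0.26. The largest called changes were those of Wdr75 (0.95), Rcl1 (0.89), Nat10 (0.75) and Wdr46 (0.63). Of 41 other 60S factors 8 rose and 0 fell, with a median of 0.22, led by Rrp15 (1.02), Ddx27 (0.82), Mdn1 (0.75) and Rpf2 (0.74). The RNA exosome, which trims rRNA precursors, had 4 of 14 subunits and cofactors higher, with a median of 0.40, namely Dis3 (0.78), Exosc9 (0.73), Exosc8 (0.72) and Mphosph6 (0.67). These shares stand beside the 6.86% of all genes that rose. Without single arrays the counts ran from 0 to 8 for the 40S list, 0 to 10 for the 60S list and 0 to 4 for the exosome. The replicate block gave 15 higher 40S factors, 14 higher and 2 lower 60S factors, and 7 higher exosome genes. In that fit 1456 of the 10916 genes tested rose and 1106 fell. With the actin ratio 1, 1 and 0 were called. Over the span 15 of the 40S factors rose and Emg1 fell by 0.36 (adjusted p = 0.048), 14 of the 60S factors rose, and 4 exosome genes rose. Of all genes tested 11.5% rose and 8.35% fell over the span. Without single arrays these span counts of higher genes ran from 5 to 15, from 5 to 15 and from 1 to 5. The Emg1 call was lost without any 1 array.

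Most genes of Myc-linked growth metabolism and of DNA replication rose in the same comparison. Of all genes tested 6.86% rose and 4.84% fell at the first step, and 11.5% and 8.35% over the span. Of 20 genes of growth metabolism 14 rose and 0 fell at the first step, with a median of 0.76. Ccnd2, a cyclin, rose by 2.92, the amino acid transporter subunit Slc7a5 by 1.65, the pyrimidine synthesis enzyme Cad by 1.40 and the spermidine synthase Srm by 1.38. Of 18 genes of replication and S phase 13 rose and 0 fell, with a median of 0.82, led by Cdc6 (1.86), Gins2 (1.65), Mcm3 (1.36) and Ccne2 (1.29). Their medians at the second step were 0.15 and -0.03, beside 0.22 for the nucleolar genes. Over the span 14 and 12 rose, with medians of 0.90 and 0.92, and without single arrays 9 to 14 and 5 to 14 did. Without single arrays the first-step counts ran from 2 to 14 for growth metabolism and from 1 to 17 for replication, and with the actin ratio they were 3 and 2. The replicate block called 17 replication genes higher, beside 1456 of the 10916 genes tested. Of the growth metabolism genes it called 14 higher and 1 lower at the first step, Eif4a1 (-0.26, adjusted p = 0.0472), and 2 higher at the second, Ccnd2 and Srm. The part of cell cycle state and of the actin ratio in the members' increase was not tested.

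**Figure D4:**
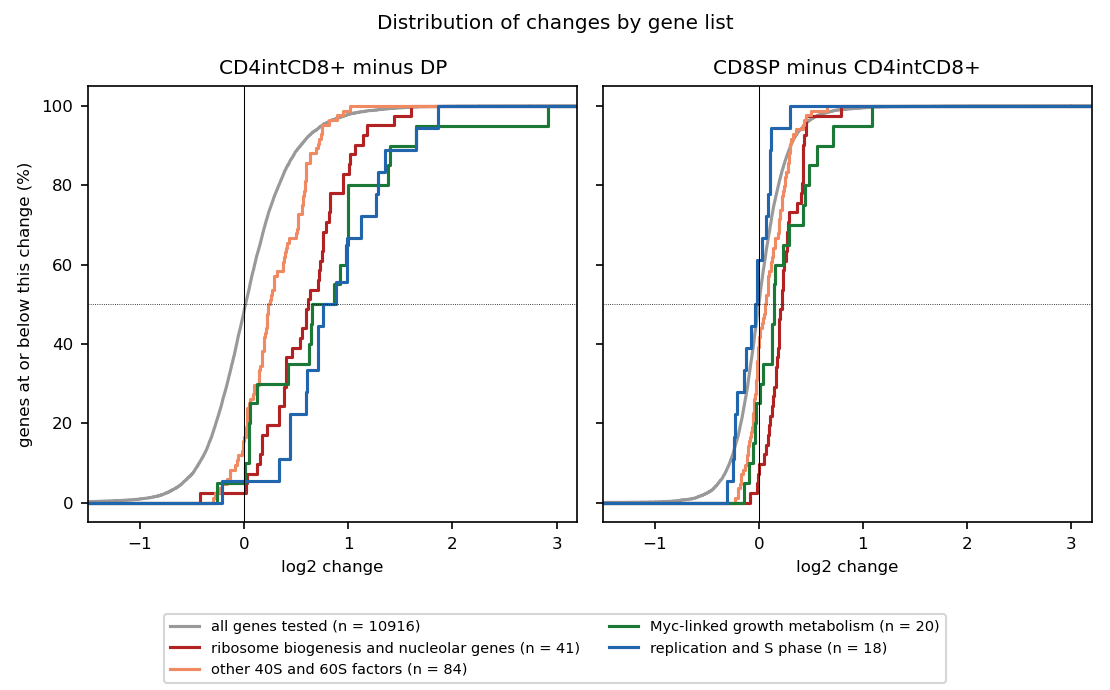
Cumulative share of genes (y axis, %) at or below a given log2 change (x axis) at the first step, left, and the second step, right, for all genes tested and 4 gene groups. At the first step the nucleolar genes (median 0.61), growth metabolism (0.76) and replication (0.82) lie to the right of all genes (0.01); at the second step replication (-0.03) lies close to all genes (0.00) and the nucleolar genes stand at 0.22.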

How the data were processed

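Biotin-labelled cRNA of 6 thymocyte samples was measured on whole-genome mouse arrays. Each probe has a deposited linear intensity on every array; the authors' software, background correction and scaling are not given in the sources used here. Negative values were replaced by 0 before log2(intensity + 5.84) was computed, the constant being the 10th percentile of positive values. Genes were named from the platform annotation of 2016, by probes with 1 symbol; the probe with the highest mean log2 value stood for a gene. The filter on dim genes removed those with means below the 40th percentile (intensity 30.8). All 6 arrays were fitted by stage with limma 3.58.1 (R 4.3.3; lmFit, eBayes with trend; 3 residual and 6.05 prior degrees of freedom), with Benjamini-Hochberg adjustment within each of 4 contrasts and calls at an adjusted p under 0.05. The script was tested on simulated data. The precision is limited by 2 arrays per stage.

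The series describes 2 independent experiments, and that the replicate numbers mark them is an inference. Deviations of same-numbered arrays correlated at 0.26, 0.21 and 0.30. The reported fit has stage as its only term and does not pair the arrays. A fit with the number as a block is an alternative, given where it changes a call. Other alternatives covered the pseudocount (1 and 32), filter, normalization, probe rule, trend, arrays compared, actin ratio and leaving out each array. The members and lists were chosen with earlier results of these data known. Values on each array were given for the 20 members, Myc included, that were called in at least 1 contrast and ranked highest by the moderated F test over stages, and for Nop58, Ddx21, Pes1, Ncl, Bop1 and Wdr12, which were chosen after their values were seen; of other lists, up to 4 called genes were named. Promoter windows were searched with Python 3.11.15.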

Additional observations from a re-analysis of the deposited data

How the results depend on the processing

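The 3 comparisons between stages were repeated under 17 alternatives, and that of CD4intCD8+ with the mean of the other stages under 16, since fitting only the arrays compared applies to pairs of stages. The count of called members at the first step, 23 as reported, moved to 4 with the actin ratio as a covariate and lay between 7 and 23 when 1 array was left out, lowest without DP replicate 2. Over all genes the share called at that step was then 3.73% with the actin ratio and 1.71% without DP replicate 2, beside 11.7% as reported; with the replicate block it was 23.5%. Without the intensity trend 17 members were called at the first step, beside 7.34% of all genes. The calls of Dkc1, Heatr1, Nolc1, Nop56, Npm1 and Pes1 were lost. Without the filter 19 were called, beside 5.69% of all genes, and those of Nop56, Pes1, Polr1a and Polr1b were lost. Averaged probes gave 20 of 40 members tested (7% of all genes), and subtracted array medians gave 21 (12.2%). The direction held under all alternatives for 38 of 41 members at the first step, the 23 called ones included, and for 41 of 41 over the span. The members' median ran from 0.46 to 0.71 at the first step and from 0.65 to 0.89 over the span. Span counts lay between 22 and 36, and between 22 and 31 with 1 array left out. Second-step counts were 0 throughout. In the comparison of CD4intCD8+ with the mean of the other stages the count was 0, and 1 with the replicate block; leaving out 1 array gave 0. The replicate block changed no other call of a member than those named above. The number of arrays limits what could be called: the median standard error of a first-step change was 0.17.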
